A study of Rattus norvegicus with 24 samples.

Results

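Kidneys use resident macrophages to clear debris and take in further leukocytes from blood when they are injured. Chemokines such as CCL2 are small secreted proteins that draw leukocytes along a gradient, and receptors such as CX3CR1 on monocytes and macrophages read them. Adhesion molecules of the vessel wall, VCAM-1 and ICAM-1, hold passing leukocytes through integrins, and the growth factor encoded by Csf1 keeps macrophages alive. The genes described here were 44 that serve as markers of macrophages and other leukocytes or encode chemokines, their receptors, adhesion molecules and this growth factor. They were picked by gene symbol from the array's annotation, where 38 of the 44 had a probe set, 45 probe sets in all of the 15923 on the array. Of these 38 genes, 31 were bright enough to be tested, 22 of 31 named leukocyte markers and 9 of 13 named chemokine, receptor, adhesion and growth factor genes. Cd163, Mrc1, Trem2, Msr1, Spi1 and Itgb2 had no probe set under their symbol. Fcgr2b, Itgam, Ptprc, Ccl2, Ccl3, Cx3cr1 and Ccr1 had one but were too dim. Of the tested genes, 23 were above the brightness limit on all 24 arrays, and the dimmest, Coro1a, was above it on 16, so no gene entered through 1 group of 6 alone.

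The rats were male SHR-SP, a spontaneously hypertensive and stroke-prone strain, so every group carried the same genetic hypertension. Feeding began at 11 weeks of age and lasted 2 or 8 weeks, with random assignment to the diets and 6 replicate animals for each diet and time. The normal diet was powdered Purina chow with plain water. The high salt and fat diet, below the salt and fat diet, paired chow of 24.5% fat with drinking water of 1% NaCl, so salt and fat cannot be told apart. Each array measured RNA of about 100 mg of powdered whole kidney of 1 animal. Signals are the authors' MAS5 values, and differences are given as log2(signal + 7.2) with ± SE, where the added 7.2 shrinks the changes of dim genes. Calls use limma across 10208 probe sets with Benjamini-Hochberg adjustment at 0.05, and signals of different probe sets are not compared.

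The arrays were alike in brightness, with median signals of 68.7 to 78.7, and their number limits the precision. All 9 kidney-defining genes with a probe set passed the brightness limit. At 2 weeks the diets differed in measures that use none of the genes described here. How these measures relate to leukocyte RNA was not tested. The 3' to 5' ratio of the GAPDH control was 1.09 ± 0.07 on the normal diet and 1.22 ± 0.09 on the salt and fat diet (SD, n = 6 each; exact two-sided permutation p = 0.0152, adjusted 0.0303 over both times). The spike-in level was lower by a log2 difference of -0.30 (exact permutation p = 0.00216, adjusted 0.00433), and an index of the fat-cell genes Fabp4, Cfd and Car3 was lower by -1.72 SD (exact permutation p = 0.00866, adjusted 0.0173). At 8 weeks the ratio and the fat index gave exact permutation p-values of 0.911 and 0.662, while the spike-in level was higher by 0.23 (p = 0.0476). The low end of the signals was raised on normal-diet arrays 1 and 2 at 8 weeks, with 1st percentiles of 2.4 and 3.0.

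Promoter sequence was at hand for 27 of the 44 genes, as the 250 bases before the RefSeq start of transcription on assembly GRCr8. Both strands were searched for the letters GAGGAAGT, a PU.1 and ETS factor motif of myeloid genes, and TGANTCA, the AP-1 motif. A narrow spelling of the NF-kB motif of inflammatory genes was searched too. GAGGAAGT was in 3 of the 27 (Fcgr3a, Cd53 and Arpc1b) and in 2.04% of 33469 rat promoters. TGANTCA was in 3 of the 27 (Cd68, Gpnmb and Cxcl10) and in 6.34% of all. The narrow NF-kB spelling was in Cxcl10 alone and in 1.08% of all. Looser NF-kB spellings were not searched, so NF-kB sites in the other promoters, that of Vcam1 included, are not excluded. Shown are the 3 promoters with a match whose genes separated the diets fully at 8 weeks, and Cxcl10 as the chemokine with most matches, with matched letters in capitals. Cd68 lies at chr10:54882442-54882691 on the minus strand with matches beginning 205 and 80 bases before the start. Gpnmb lies at chr4:79340878-79341127 on the plus strand with a match 87 bases before the start. Arpc1b lies at chr12:14609489-14609738 on the minus strand with a match 16 bases before the start. Cxcl10 lies at chr14:15988816-15989065 on the plus strand, with NF-kB matches at 187, 128 and 127 bases, of which the latter pair overlap, and an AP-1 match at 96 bases.
Cd68: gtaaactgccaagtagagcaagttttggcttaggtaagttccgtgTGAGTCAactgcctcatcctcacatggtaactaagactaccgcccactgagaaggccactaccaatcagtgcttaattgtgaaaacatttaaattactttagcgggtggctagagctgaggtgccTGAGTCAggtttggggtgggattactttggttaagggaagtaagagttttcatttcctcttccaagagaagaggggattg
Gpnmb: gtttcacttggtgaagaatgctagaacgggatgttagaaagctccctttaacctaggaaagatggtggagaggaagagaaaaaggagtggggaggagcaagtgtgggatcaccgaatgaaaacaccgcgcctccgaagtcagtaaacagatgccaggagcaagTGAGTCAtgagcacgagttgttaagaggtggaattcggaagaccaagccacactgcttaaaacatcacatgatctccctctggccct
Arpc1b: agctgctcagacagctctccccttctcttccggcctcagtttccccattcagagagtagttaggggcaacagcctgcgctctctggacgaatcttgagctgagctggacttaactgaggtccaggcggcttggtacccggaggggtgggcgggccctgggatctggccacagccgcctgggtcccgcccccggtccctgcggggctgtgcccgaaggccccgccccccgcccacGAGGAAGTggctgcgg
Cxcl10: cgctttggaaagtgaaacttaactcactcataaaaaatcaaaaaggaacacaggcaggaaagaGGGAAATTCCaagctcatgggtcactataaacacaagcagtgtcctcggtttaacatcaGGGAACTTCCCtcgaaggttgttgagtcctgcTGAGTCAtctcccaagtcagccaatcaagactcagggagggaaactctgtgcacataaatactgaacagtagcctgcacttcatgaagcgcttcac
The promoters of C1qa, Lyz2, Laptm5, Coro1a, Cd44 and Vcam1, which also rose at 8 weeks, held none of the searched spellings in this window. A match is a description of the sequence and not evidence of binding, and a lack of one does not exclude sites of another spelling.

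After 8 weeks the salt and fat kidneys had higher RNA of lysosome proteins, the C1q A chain, GTPase and actin regulators and VCAM-1. No chemokine gene was called. Of the 22 leukocyte markers, 11 rose and 0 fell, against 5.73% of the 7491 tested genes called higher and 3.76% called lower. Their median difference was 0.37, with 21 of 22 above 0, where the median over all tested genes was 0.0017 and 50.2% were above 0. Of the 9 chemokine, adhesion and growth factor genes, Vcam1 rose and 0 fell, with a median of 0.14 and 5 of 9 above 0. In whole kidney RNA, more cells of a type and more RNA per cell cannot be told apart, and neither can the cell types that made the RNA. All 6 salt and fat animals lay above all 6 normal-diet animals for 5 leukocyte markers (C1qa, Cd68, Gpnmb, Rac2 and Arpc1b) and for Vcam1, against 2.39% of all tested genes.

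**Figure D1:**
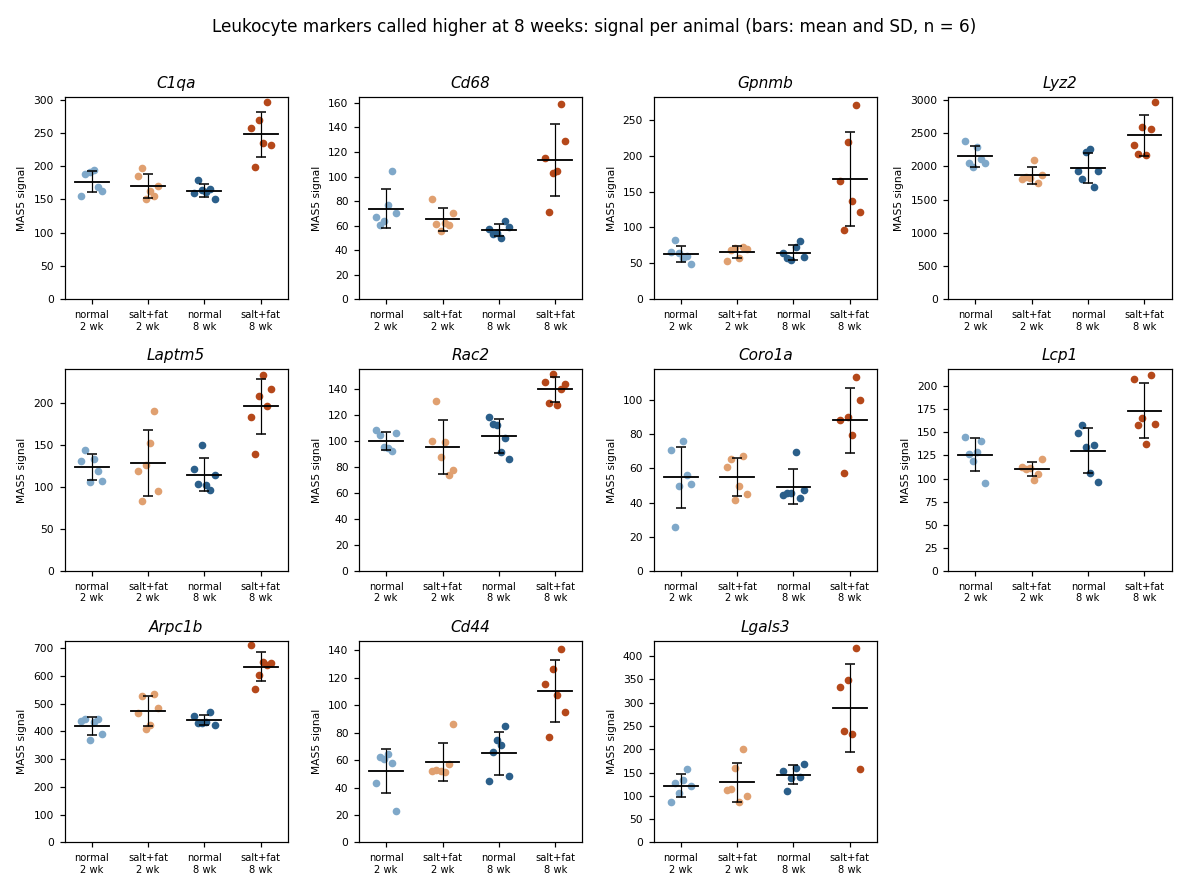
MAS5 signal of each animal (points) for the 11 leukocyte markers that rose at 8 weeks, on linear axes from 0, with group means and SD bars (n = 6). The 8-week salt and fat animals have the highest mean in every panel, and the other 3 groups overlap.

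Gpnmb encodes a glycoprotein of late endosomes and lysosomes that is abundant in lipid-laden and debris-clearing macrophages. At 8 weeks its signal (probe set 1368187_at) ran from 55.2 to 81.2 with a median of 61.65 on the normal diet, and from 95.8 to 269.9 with a median of 150.65 on the salt and fat diet. No animal overlapped, and the difference of 1.21 ± 0.17 was the widest of the 31 genes (adjusted p = 2.91e-05 in limma). Cd68, a lysosomal membrane glycoprotein used as a macrophage stain (1375010_at), ran from 50.1 to 63.9 with a median of 55.45 on the normal diet and from 71.2 to 159 with a median of 109.65 on the salt and fat diet. Again the groups were apart, by 0.90 ± 0.14 (adjusted p = 0.000106 in limma). Lyz2, the bacteria-lysing enzyme lysozyme (1370154_at), ran from 1689 to 2253 on the normal diet and from 2169 to 2970 on the salt and fat diet, with medians of 1927 and 2440. Here 4 of 6 salt and fat animals exceeded every normal-diet animal, and the difference was 0.32 ± 0.08 (adjusted p = 0.00966 in limma, and 0.0576 without normal-diet arrays 1 and 2). Mpeg1, the pore-forming protein of phagosomes, did not pass, at 0.31 ± 0.11 (adjusted p = 0.0889 in limma), and its dimmer probe set was not tested.

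C1q, the recognition molecule of the classical complement pathway, is built of A, B and C chains made largely by macrophages. C1qa (1376652_at) ran from 150.7 to 178.8 with a median of 162.9 on the normal diet and from 198.9 to 296 with a median of 246.2 on the salt and fat diet, and rose by 0.57 ± 0.09 (adjusted p = 7.03e-05 in limma). C1qb ran from 69.7 to 131.2 on the normal diet and from 93.9 to 238.6 on the salt and fat diet, with medians of 93.75 and 125.7. All 6 salt and fat animals were above the normal-diet median of C1qb, but the groups overlapped and 0.51 ± 0.19 did not pass (adjusted p = 0.0875 in limma). C1qc differed by 0.23 ± 0.12 (adjusted p = 0.264 in limma). With all arrays the A chain was thus the called one, and the 3 point estimates were all above 0. Without normal-diet arrays 1 and 2, C1qb was called too (0.70 ± 0.20, adjusted p = 0.039 in limma), and C1qc was not (adjusted p = 0.256). C1qb was also called without salt and fat array 6 at 8 weeks.

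Receptors and adaptors of phagocytes were less clear. Cd14, the co-receptor for bacterial lipopolysaccharide, ran from 55.6 to 79.4 on the normal diet and from 48 to 144.4 on the salt and fat diet. Its animals on the salt and fat diet held both the lowest and the highest value, and 0.31 ± 0.16 did not pass (adjusted p = 0.246 in limma). Tyrobp and Fcer1g, adaptors with an activation motif that signal for many myeloid receptors, gave 0.33 ± 0.13 and 0.25 ± 0.09 (adjusted p = 0.106 and 0.0967 in limma). Without normal-diet arrays 1 and 2, Tyrobp was called (0.48 ± 0.13, adjusted p = 0.0322 in limma) and Fcer1g was not (adjusted p = 0.223). Fcgr3a, an activating receptor for IgG with close relatives in the genome, gave 0.23 ± 0.13 (adjusted p = 0.283 in limma). Csf1r, the receptor through which Csf1 maintains macrophages, ran from 112.1 to 168.7 on the normal diet and from 119.8 to 193.5 on the salt and fat diet. Its groups lay almost on top of each other, at 0.09 ± 0.14 (adjusted p = 0.762 in limma). Aif1, the calcium-binding macrophage protein IBA1, gave opposite signs on its probe sets, -0.12 ± 0.19 on the brighter (1369489_at, adjusted p = 0.758 in limma) and 0.41 ± 0.19 on the dimmer (1368558_s_at, adjusted p = 0.178 in limma).

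Genes of most or all leukocytes divided in the same way. Laptm5, a lysosomal membrane protein of blood cells (1368006_at), ran from 96.3 to 149.9 with a median of 109 on the normal diet and from 139.4 to 232.5 with a median of 202 on the salt and fat diet. Apart from the lowest, the salt and fat animals exceeded every normal-diet animal, and Laptm5 rose by 0.73 ± 0.15 (adjusted p = 0.00193 in limma). Cd53, a leukocyte tetraspanin, gave 0.21 ± 0.14 (adjusted p = 0.37 in limma). Lyn, a SRC-family kinase of myeloid and B cells, gave 0.13 ± 0.16 and 0.01 ± 0.14 on its probe sets, neither called.

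Of 5 kinase, GTPase and actin genes, 4 rose. Arpc1b (1386925_at) encodes a subunit of the actin-branching ARP2/3 complex. Its signal ran from 424.2 to 468.5 on the normal diet and from 550.6 to 709.2 on the salt and fat diet. Arpc1b rose by 0.51 ± 0.07 (adjusted p = 3.17e-05 in limma). Rac2, the GTPase of the phagocyte oxidase (1372404_at), ran from 86.1 to 118.7 and from 127.6 to 151.6, and rose by 0.41 ± 0.11 (adjusted p = 0.0145 in limma). For both genes the diets did not overlap. Coro1a, an actin-binding coronin of leukocytes (1369964_at), ran from 42.5 to 69.9 on the normal diet and from 57.4 to 113.8 on the salt and fat diet, and rose by 0.75 ± 0.18 (adjusted p = 0.0102 in limma). Lcp1, the actin-bundling L-plastin (1389210_at), ran from 96.3 to 157.6 and from 137.8 to 212.7, and rose by 0.40 ± 0.12 (adjusted p = 0.0297 in limma). Overlap was limited for Coro1a and Lcp1, with 5 of 6 salt and fat animals above every normal-diet animal. The Lcp1 call was lost without normal-diet array 4 or 6 or salt and fat array 1 or 5 at 8 weeks. Its adjusted p in limma then reached 0.0917. The call was also lost with the spike-in level as a covariate and with only the groups compared, at adjusted p up to 0.0739.

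Cd44 and Lgals3 are made by leukocytes and also by injured tubule epithelium. Cd44, the hyaluronan receptor, ran from 45 to 84.9 on the normal diet and from 77 to 141.1 on the salt and fat diet on its brighter probe set (1387952_a_at), with a rise of 0.71 ± 0.19 (adjusted p = 0.0169 in limma). Its other probe set (1368921_a_at) ran from 10 to 79.1 and from 79.3 to 123.7, with a rise of 1.06 ± 0.31 (adjusted p = 0.0276 in limma) and no overlap. On that probe set normal-diet animals 1 and 2 were at 13.3 and 10 and the other 4 at 64.9 to 79.1, and without both arrays the difference was 0.36 ± 0.17 (adjusted p = 0.231 in limma). The brighter probe set lost its call without normal-diet array 1 or salt and fat array 5 at 8 weeks, at adjusted p up to 0.0528. It also lost it with the spike-in level as a covariate and without both normal-diet arrays 1 and 2, at adjusted p up to 0.13 in limma. Lgals3, the sugar-binding protein galectin-3 (1386879_at), ran from 110.8 to 168.2 on the normal diet and from 157.3 to 416.3 on the salt and fat diet. It rose by 0.90 ± 0.19 (adjusted p = 0.00272 in limma), with 1 salt and fat animal inside the normal-diet range.

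Of the adhesion molecules, Vcam1 rose and Icam1 did not pass. On the normal diet Vcam1, a ligand of the integrin VLA-4 (1368474_at), ran from 88.4 to 128.3 with a median of 107.45. On the salt and fat diet it ran from 141.7 to 199.7 with a median of 166.1. The groups did not overlap, and Vcam1 rose by 0.60 ± 0.13 (adjusted p = 0.0032 in limma). Icam1, the ligand of leukocyte beta-2 integrins (1387202_at), ran from 48.2 to 173.5 on the normal diet and from 102.2 to 230.9 on the salt and fat diet, with medians of 136.65 and 206.7. Its difference of 0.73 ± 0.25 did not pass (adjusted p = 0.0632 in limma), with normal-diet animals at 48.2 and 65.3, a salt and fat animal at 102.2, and log2 SDs of 0.71 and 0.42. Without that salt and fat animal (number 2), normal-diet animal 5 or 6 at 8 weeks, or salt and fat animal 2 at 2 weeks, it did pass, with adjusted p-values down to 0.0197. The low normal-diet values of 65.3 and 48.2 are those of arrays 1 and 2, and without both arrays the Icam1 difference was 0.28 ± 0.20 (adjusted p = 0.495 in limma).

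**Figure D2:**
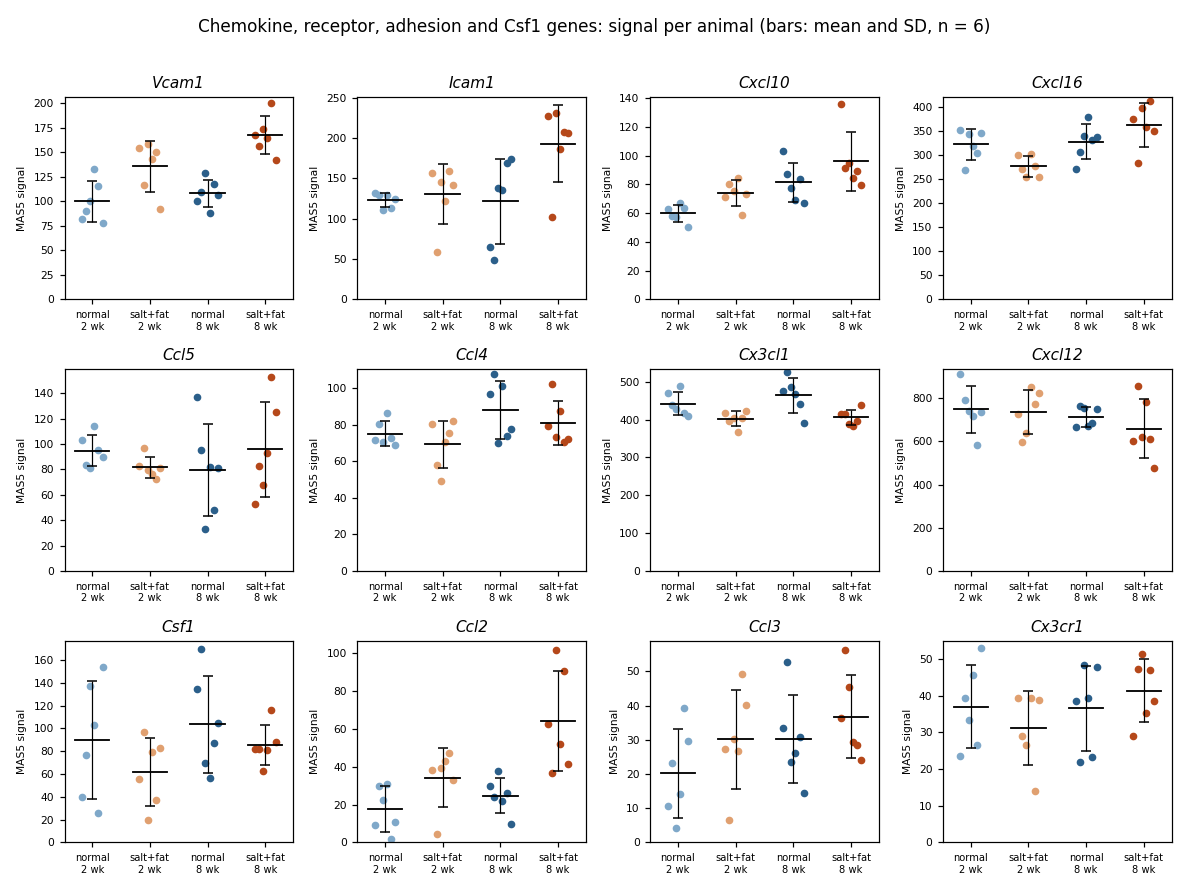
MAS5 signal of each animal (points) for 12 chemokine, receptor, adhesion and growth factor genes on linear axes from 0, with group means and SD bars (n = 6). Vcam1 separates the diets at 8 weeks, the other genes overlap, and Ccl2, Ccl3 and Cx3cr1 were too dim to be tested.

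None of the 6 chemokines tested was called at 8 weeks by limma, and Cx3cl1 was the one with an unadjusted p under 0.05. Cx3cl1, the membrane-bound chemokine fractalkine, ran from 390.2 to 525.6 on the normal diet and from 382.6 to 438.4 on the salt and fat diet. All 6 salt and fat animals lay under the normal-diet median, at a difference of -0.19 ± 0.07 (adjusted p = 0.0729 in limma), opposite in sign to the leukocyte markers. Cxcl16, a membrane-bound chemokine and scavenger receptor, ran from 271.1 to 380.2 and from 284.6 to 412 (0.14 ± 0.09, adjusted p = 0.346 in limma). Cxcl10, the interferon-induced ligand of CXCR3 on T cells, gave 0.21 ± 0.12 (adjusted p = 0.29 in limma), with 1 high animal at 136.2. Ccl5 and Ccl4, chemokines that draw T cells and monocytes, gave 0.29 ± 0.22 and -0.10 ± 0.12 (adjusted p = 0.47 and 0.666 in limma). Values of Ccl5 were scattered in both groups, from 33.4 to 136.9 on the normal diet and from 53.1 to 153.2 on the salt and fat diet. Cxcl12, a homing chemokine made by stromal cells, gave -0.14 ± 0.11, -0.14 ± 0.15 and 0.03 ± 0.09 on its 3 probe sets, none called. Csf1 ran from 56.3 to 169.3 and from 63 to 116.3, at -0.19 ± 0.33 (adjusted p = 0.783 in limma).

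The dim genes are described with a fit of all probe sets, without the brightness limit. Ccl2, the main chemokine for monocytes, ran from 9.6 to 37.6 with a median of 24.85 on the normal diet and from 36.6 to 101.4 with a median of 57.05 on the salt and fat diet. Of the salt and fat animals, 5 exceeded every normal-diet animal, and the difference was 1.13 ± 0.36 (adjusted p = 0.0667 in limma without the limit). Fcgr2b, the inhibitory IgG receptor, had signals of 1 to 11.3 on the normal diet and 10.3 to 37.2 on the salt and fat diet, all under the brightness limit. There the adjusted p of 0.0113 (1.12 ± 0.26, limma without the limit) rests on signals close to the array's floor. Ptprc, the pan-leukocyte CD45, gave 0.23 ± 0.18 and 0.61 ± 0.28 on its probe sets, neither called. Differences of Ccl3, Cx3cr1, Itgam and Ccr1 were 0.26 ± 0.32, 0.18 ± 0.22, -0.18 ± 0.20 and 0.15 ± 0.30, none called.

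**Figure D3:**
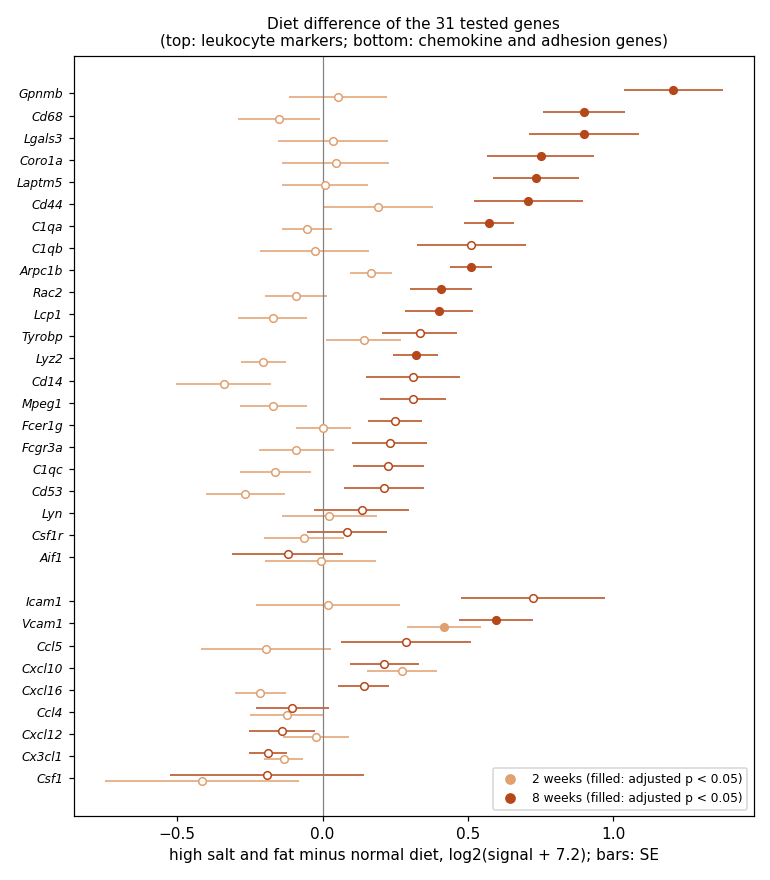
Salt and fat minus normal diet, on the log2(signal + 7.2) scale with SE bars, for the 31 tested genes at 2 and 8 weeks. Filled points have adjusted p under 0.05 in limma: 11 leukocyte markers and Vcam1 at 8 weeks, and Vcam1 at 2 weeks.

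At 2 weeks the leukocyte markers did not differ detectably between the diets. In limma 0 of 22 were called in either direction, where 5.03% of tested genes were called higher and 3.59% lower. At an unadjusted p under 0.05, 1 was higher (Arpc1b) and 2 were lower (Lyz2 and Cd14). Their median difference was -0.04 with a range of -0.34 to 0.19. Gpnmb ran from 49.2 to 82.8 on the normal diet and from 53.2 to 72.4 on the salt and fat diet (0.05 ± 0.17). Cd68 ran from 60.2 to 104.5 and from 55.7 to 81.9 (-0.15 ± 0.14), so that the diets overlapped for both genes. Lyz2 ran from 1993 to 2382 on the normal diet and from 1741 to 2096 on the salt and fat diet, with 5 of 6 salt and fat animals under every normal-diet animal (-0.20 ± 0.08, adjusted p = 0.104 in limma). With only the 2-week arrays in the fit, Lyz2 was called lower.

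Vcam1 was the 1 gene of the 31 called at 2 weeks. It ran from 77.6 to 132.9 with a median of 95.4 on the normal diet and from 91.9 to 158.2 with a median of 146.25 on the salt and fat diet. The groups overlapped, with 4 of 6 salt and fat animals above every normal-diet animal, and the difference was 0.42 ± 0.13 (adjusted p = 0.0399 in limma). This call was lost without any 1 of 8 of the 12 arrays (normal-diet 1, 2, 3 or 6, salt and fat 1, 3, 4 or 5), where adjusted p reached 0.101. It was also lost with the GAPDH ratio, the spike-in level or the fat index as a covariate. No tested member was fully separated on its brightest probe set at 2 weeks, against 2.92% of tested genes. A dimmer Cxcl12 probe set (1388583_at) was, from 389.8 to 464.4 against 468.2 to 546.5 (0.24 ± 0.09, adjusted p = 0.0797 in limma), while another (1387655_at) had the opposite sign (-0.39 ± 0.15, adjusted p = 0.0969 in limma). Cxcl10 was above every normal-diet animal in 5 of 6 salt and fat animals but did not pass (0.27 ± 0.12, adjusted p = 0.163 in limma). Ccl2 likewise, at 1.8 to 30.9 against 4.2 to 47.3, was above every normal-diet animal in 5 of 6 (0.76 ± 0.36, adjusted p = 0.268 in limma without the brightness limit).

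The diet difference itself was larger at 8 weeks than at 2 weeks for 4 leukocyte markers. The interaction of diet and time was 1.15 ± 0.24 for Gpnmb, 1.05 ± 0.20 for Cd68, 0.62 ± 0.12 for C1qa and 0.52 ± 0.11 for Lyz2 (adjusted p = 0.0219, 0.0155, 0.0165 and 0.0241 in limma). Of all tested genes 0.36% were called higher and 0.0534% lower in the interaction. The other 18 leukocyte markers were not called, although 21 of 22 estimates were above 0 with a median of 0.51. None of the 9 chemokine, adhesion and growth factor genes was called in limma, and Cxcl16 alone had an unadjusted p under 0.05 (0.36 ± 0.12, adjusted p = 0.236). For Vcam1 the interaction was 0.18 ± 0.18 (adjusted p = 0.754 in limma), so its difference was not shown to change between the times. The 4 calls were lost with the GAPDH ratio, the spike-in level or the fat index as a covariate, measures that differed between the diets at 2 weeks. The estimates stayed above 0, at no less than 0.54 for C1qa, 0.82 for Cd68, 0.87 for Gpnmb and 0.40 for Lyz2 over the 13 settings other than leaving out 1 array. Without salt and fat array 3 at 8 weeks the calls of Gpnmb and Lyz2 were lost, as was that of Lyz2 without normal-diet array 2 at 8 weeks. Both calls were also lost without normal-diet arrays 1 and 2 at 8 weeks together. That of Lyz2 was lost with quantile normalization and with no intensity trend as well.

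On the salt and fat diet, 14 of 22 leukocyte markers were higher at 8 than at 2 weeks and 0 were lower, against 2.04% and 1.47% of tested genes. Age and time on the diet go together in this comparison, and it shares its 8-week arrays with the diet comparison. All 3 C1q chains rose, C1qa by 0.52 ± 0.09, C1qb by 0.70 ± 0.19 and C1qc by 0.49 ± 0.12 (adjusted p = 0.000754, 0.0333 and 0.0194 in limma). Lgals3 and Cd44 rose by 1.11 ± 0.19 and 0.83 ± 0.19, and Tyrobp and Mpeg1, which the diet comparison did not call, rose by 0.50 ± 0.13 and 0.48 ± 0.11 (adjusted p = 0.0236 and 0.0164 in limma). Coro1a did not pass (0.61 ± 0.18, adjusted p = 0.0614 in limma). The calls of C1qb, C1qc, Mpeg1 and Tyrobp were each lost without some single arrays, salt and fat array 5 at 8 weeks among them for all 4. Cxcl16 was the chemokine that rose, from signals of 254.7 to 303.2 at 2 weeks to 284.6 to 412 at 8 weeks (0.37 ± 0.09, adjusted p = 0.0137 in limma), and the Cxcl12 probe set 1388583_at fell by 0.31 ± 0.09 (adjusted p = 0.041).

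On the normal diet none of the 31 genes was called for time in limma, where 0.04% of tested genes were called higher and 0.0133% lower, a share too small to say anything particular of these genes. At an unadjusted p under 0.05, 2 were higher and 1 was lower. These were Cxcl10 (0.40 ± 0.12, adjusted p = 0.285 in limma), Tyrobp (0.31 ± 0.13) and Cd68 (-0.34 ± 0.14). Cxcl10 had a similar estimate on the salt and fat diet (0.33 ± 0.12, adjusted p = 0.126 in limma).

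**Figure D4:**
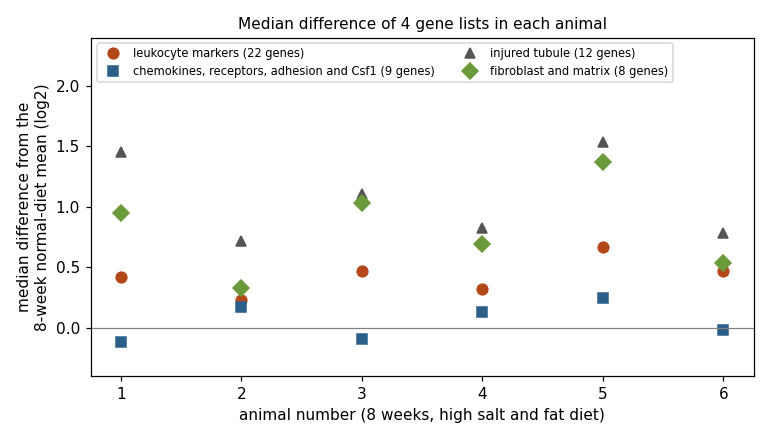
Median difference from the 8-week normal-diet mean, on the log2 scale, of 4 gene lists (markers) in each of the 6 salt and fat animals at 8 weeks (x axis). Animal 5 has the highest leukocyte and injured tubule medians and animal 2 the lowest, and the chemokine and adhesion list stays between -0.12 and 0.25.

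The 6 salt and fat animals at 8 weeks differed among themselves, and the leukocyte markers largely ranked them alike. Their median difference over the 22 markers from the normal-diet mean was 0.42, 0.23, 0.47, 0.32, 0.67 and 0.47 in animals 1 to 6. Animal 5 had the highest value for 13 of 22 markers and animal 2 the lowest for 14. The array of animal 2 also had the highest GAPDH ratio of the group, 1.33. The part of RNA quality in this spread was not tested. The log2 SD among these animals was 0.53 for Gpnmb, 0.50 for Lgals3 and 0.36 for Cd68, against 0.20, 0.20 and 0.11 on the normal diet. Rac2 and Arpc1b varied less, with SDs of 0.09 and 0.12. The 9 chemokine, adhesion and growth factor genes gave medians of -0.12, 0.17, -0.10, 0.13, 0.25 and -0.02 in the same animals. The count of 11 leukocyte markers became 9 without animal 5 and 14 without animal 2.

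Markers of injured tubule and of matrix moved with the leukocyte markers at 8 weeks. Of 12 injured tubule genes 10 rose and 0 fell, with a median of 1.13, and their summed signal was 8456 to 17145 on the salt and fat diet against 4285 to 5443 on the normal diet. Spp1, the secreted protein osteopontin that macrophages also make, rose by 2.19 ± 0.17, Cd24, a surface glycoprotein of regenerating tubule, by 1.15 ± 0.10 and Lcn2, the iron-binding protein NGAL, by 2.27 ± 0.22. Of 8 fibroblast and matrix genes 5 rose, with a median of 0.82, led by Col1a1 (1.80 ± 0.20) and Fn1 (1.05 ± 0.13), which encode collagen I and fibronectin. In the same animals the injured tubule medians were 1.45, 0.72, 1.11, 0.82, 1.54 and 0.78, highest in animal 5 and lowest in animal 2, as for the leukocyte markers. Between these extremes the order differed. Animal 6 was above animal 1 for the leukocyte markers (0.47 and 0.42) but below it for injured tubule. At 2 weeks 5 of 12 injured tubule genes and 0 of 22 leukocyte markers were called higher, against 5.03% of tested genes. A count of 0 of 22 is near that share and does not set the leukocyte markers apart. Markers of the proximal tubule, the segment that reabsorbs most of the filtrate, went the other way. Of 10 proximal tubule genes 5 fell (Lrp2, Slc5a2, Slc22a6, Slc22a8 and Slc13a3) and 0 rose at 8 weeks, with a median of -0.26, and their summed signal was 18980 to 23411 on the salt and fat diet against 22856 to 29337 on the normal diet. At 2 weeks 7 of the 10 had fallen, with a median of -0.33. The part of tubule injury and of proximal tubule RNA in the leukocyte differences was not tested.

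Few markers of lymphocytes, natural killer cells and neutrophils were bright enough to test. Of 10 measured lymphocyte genes Cd3g and Lck were bright enough to test, and limma called neither for diet after 8 weeks (0.51 ± 0.19 with adjusted p = 0.0906 for Cd3g and 0.11 ± 0.14 with adjusted p = 0.688 for Lck). None of 6 natural killer cell genes was bright enough. Of 6 neutrophil genes only Mmp9 was, while S100a8 and S100a9, the most abundant neutrophil transcripts, had median signals of 1.45 and 3.15 over all arrays. Both tested mast cell genes were uncalled at 8 weeks.

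Further genes of the same processes gave a mixed picture at 8 weeks. Of 15 other myeloid genes 4 rose and 0 fell. Capg, a macrophage actin-capping protein, rose by 0.97 ± 0.14, Anxa1, the phospholipid-binding annexin A1, by 0.76 ± 0.11, and Ctss, the lysosomal protease cathepsin S, by 0.49 ± 0.10 (adjusted p = 2.91e-05, 4.38e-05 and 0.00236 in limma). The fourth was Clec4a3, named after its value was seen (0.61 ± 0.18). Of 10 other chemokine and cytokine genes 0 were called in limma, with Ccl22 the 1 at an unadjusted p under 0.05 (-0.54 ± 0.25). Among 6 other receptors Tnfrsf1a, a receptor for TNF, rose by 0.52 ± 0.12 and Csf2rb, the shared beta chain of the GM-CSF receptor, fell by 0.57 ± 0.11 (adjusted p = 0.00883 and 0.00171 in limma). Of 6 other adhesion genes 3 rose, Cd47 by 0.51 ± 0.10, Alcam by 0.32 ± 0.08 and Itgb1 by 0.32 ± 0.10. Of 10 endothelial markers 0 were called higher, and Kdr, a VEGF receptor, fell by 0.40 ± 0.11 (adjusted p = 0.016 in limma). At 2 weeks Capg had already risen (0.60 ± 0.14), while Cyba, a phagocyte oxidase subunit, and Cd4 fell by 0.40 ± 0.08 and 0.40 ± 0.11. Csf2rb had also fallen by 0.75 ± 0.11 at 2 weeks.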

How the data were processed

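Per the submitters' processing notes the authors made the values with MAS5, and they deposited 1 intensity value per probe set and array, linear and never negative, with 27 of them at 0. The version and scaling target were not given in the sources used here, but the mean without the lowest and highest 2% of values was 150.034 to 150.042 on every array. Within groups, arrays correlated at 0.958 to 0.981 and shared at most 0.691% identical values. Per the labels, the 6 arrays of a diet and time are of separate animals. Gene symbols came from the platform annotation, with 12783 probe sets of 1 symbol, 312 of several and 2771 of none, and 57 array controls were left out. A RefSeq table of GRCr8 changed 0 symbols and had no match for 35 of the probe sets with 1 symbol.

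Signals were raised by 7.2, 0.1 of the typical array median, and turned to log2. A probe set was tested if it exceeded the 40th percentile of its array, a signal between 44.48 and 54.5, on 6 or more of the 24 arrays. The 4 groups were fitted together with limma 3.58.1 under R 4.3.3 (lmFit, contrasts.fit and eBayes with trend). Each of 7491 genes was read from the probe set brightest on average (mean log2 signal). All tests were two-sided, and the fit was tested on simulated data. Named were all of the 44 genes with a probe set, and from each other list up to 3 genes of smallest p and those against its direction. The members, lists and tests were chosen with earlier results of these data known. Other settings were other pseudocounts, filters and normalization, no trend, the replicate number as a block, 3 covariates, only the groups compared, omission of arrays and the mean of a gene's probe sets.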

Additional observations from a re-analysis of the deposited data

Results flagged for a closer look

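The interaction of diet and time was called by limma for 4 of the 31 genes, with a larger diet difference at 8 than at 2 weeks of 1.15 for Gpnmb, 1.05 for Cd68, 0.62 for C1qa and 0.52 for Lyz2 on the log2 scale.

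A single animal lay apart from the other 5 of its group in 9 of 124 sets of gene and group, by Dixon's criterion, which chance meets in about 1 of 20 sets. On the normal diet these were Cd68 in animal 5 at 2 weeks (104.5), Mpeg1 in animal 3 at 8 weeks (242.8) and Coro1a in animal 4 at 8 weeks (69.9), all high. On the salt and fat diet at 2 weeks they were Lyz2 and Fcer1g in animal 4 (2095.6 and 527.8) and Cd44 in animal 6 (86), all high, and Icam1 in animal 2 (58.8), low. At 8 weeks on the salt and fat diet they were Cxcl10 in animal 1 (136.2), high, and Icam1 in animal 2 (102.2), low. Each of these flagged low Icam1 values came from the array with the highest GAPDH ratio of its group, 1.40 at 2 weeks and 1.33 at 8 weeks. The low values of normal-diet animals 1 and 2 at 8 weeks (65.3 and 48.2) went the other way. Their arrays had the lowest ratios of their group, 1.091 and 1.106.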

How the results depend on the processing

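The count of 11 leukocyte markers higher at 8 weeks stayed within 1.5 times under every setting tried (9 to 14 with each array left out in turn), and no difference called either way changed sign. Of 4524 uncalled single-gene differences under other settings, 143 had the opposite sign. Of the 38 genes with a probe set, 7 were too dim to test.

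The 892 probe sets called for diet at 2 weeks became 328 with the GAPDH ratio, 482 with the spike-in level and 232 with the fat index as a covariate, and 598 to 986 with arrays left out. The 933 at 8 weeks became 497 with the spike-in level, 542 without normal-diet arrays 1 and 2, and 543 to 1120 with arrays left out. The 39 of the interaction became 4, 0 and 13 with the GAPDH ratio, the spike-in level and the fat index, and 22 to 50. The 360 for time on the salt and fat diet became 223 with only the groups compared and 220 to 507. The 4 for time on the normal diet became 0 without a trend, with any of the 3 covariates or with only the groups compared, 9 without normal-diet arrays 1 and 2, and 0 to 10 with arrays left out.

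At 2 weeks the 1 chemokine and adhesion gene higher (Vcam1) became 0 with quantile normalization, no filter, each of the 3 covariates or only the groups compared, and 0 to 1 with arrays left out, and the 0 leukocyte markers lower became 1 with only the groups compared. At 8 weeks the 1 chemokine and adhesion gene higher became 2 with Icam1 under the replicate block or the fat index, and 1 to 2 with arrays left out, and the 0 lower became 0 to 1. The 4 leukocyte interactions became 0 with each of the 3 covariates, 2 without normal-diet arrays 1 and 2, and 2 to 5 with arrays left out. For time on the salt and fat diet the 14 leukocyte markers became 10 to 18 with arrays left out, and the 1 chemokine became 0 with the spike-in level. The cause was not tested for any of these changes.

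The replicate numbers did not pair the animals: 1 of 12 same-numbered pairs deviated together at a correlation above 0.1, and 2 of 24 arrays correlated best with their own number. The replicate block gave 892 probe sets at 2 weeks and 922 at 8 weeks.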

Other observations

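Antigen presentation genes were measured beside the macrophage markers. Of 9 dendritic cell and MHC class II genes, 2 rose and 0 fell at 8 weeks. RT1-Db1, the beta chain of a class II molecule, rose by 0.65 ± 0.12 and RT1-Da, its alpha chain partner, by 0.54 ± 0.11 (adjusted p = 0.000936 and 0.00206 in limma), while RT1-Ba gave 0.34 ± 0.11 (adjusted p = 0.0611) and RT1-DMb, against the rest, -0.05 ± 0.07. At 2 weeks RT1-Da was lower by a difference of -0.35 ± 0.11 (adjusted p = 0.0472 in limma). On the salt and fat diet 5 of the 9 genes were higher at 8 than at 2 weeks.

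Mmp9, a gelatinase stored by neutrophils and made by other cells too, was lower on the salt and fat diet at 2 weeks (-0.73 ± 0.21, adjusted p = 0.0279 in limma) and gave 0.14 ± 0.21 at 8 weeks. Mmp9 was dim, with a median signal of 40.1 over all arrays, and was above the brightness limit on 6 arrays, the fewest that allow a test. Cxcl13, the chemokine that draws B cells, was lower at 2 weeks (-0.55 ± 0.13, adjusted p = 0.01 in limma) and gave -0.12 ± 0.13 at 8 weeks.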
